A study of Mus musculus with 6 samples.

Results

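Integrins and laminins were represented by 28 genes of the 16380 genes that the arrays measured in mouse olfactory epithelium, comprising 14 integrin alpha subunits, 7 integrin beta subunits and 7 laminin chains. They were chosen by gene symbol alone, as every integrin alpha, integrin beta and laminin chain gene that had probe sets annotated to exactly 1 symbol. Their 904 probe sets each report a stretch of an exon. Genes in the dimmest 10% by mean signal were set aside, which left 14742 genes tested, and all 28 members were among them. Itga1, Itga4, Itga10, Itgad, Itgb8, Lama3, Lama5 and Lamb2 also match the naming rule and were not analysed here.

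The tissue came from 3 male C57BL/6 mice, each with the olfactory bulb removed on only 1 side (olfactory bulbectomy, OBX). The labels put the mice at 8 weeks of age, and the study's methods give a younger age at surgery. The epithelium was collected 5 days after surgery from the nasal cavity ipsilateral to the removed bulb (OBX side) and from the contralateral side of the same mouse (control side), giving 6 arrays in 3 pairs. The control side is therefore an unlesioned side in an operated animal, and no unoperated mouse was included. Removing the bulb cuts the axons of the olfactory sensory neurons on that side, the mature neurons die, and basal progenitors then replace them.

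Integrins are receptors built from an alpha and a beta chain that span the cell membrane and bind matrix proteins outside the cell, or adhesion molecules on other cells, while linking to actin or keratin filaments inside. Laminins are cross-shaped proteins of an alpha, a beta and a gamma chain, and form the sheet on which a basement membrane is assembled. In the olfactory mucosa a basement membrane lies under the horizontal basal cells, which are held to it by hemidesmosomes, and others surround the blood vessels, glands and axon bundles of the lamina propria beneath.

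The promoters of 3 members that rose are shown because they belong to different parts of the family, Itgav and Itgb5 being the chains of a receptor for vitronectin and Itgax a chain of a leukocyte receptor. Each line is the 250 bases before the annotated start of the RefSeq transcript on build GRCm38.p6, read 5′ to 3′. Capitals mark matches on either strand to GAGGAA, a core read by ETS-family factors such as PU.1, to GGGCGG, the GC box read by Sp1, or to TGANTCA, the AP-1 element.
Itgav, chr2:83724147-83724396, plus strand: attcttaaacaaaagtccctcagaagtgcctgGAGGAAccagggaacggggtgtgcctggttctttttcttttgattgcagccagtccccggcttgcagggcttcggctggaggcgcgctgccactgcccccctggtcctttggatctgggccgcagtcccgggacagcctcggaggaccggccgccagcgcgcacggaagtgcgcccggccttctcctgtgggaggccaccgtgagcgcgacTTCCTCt
Itgb5, chr16:33829415-33829664, plus strand: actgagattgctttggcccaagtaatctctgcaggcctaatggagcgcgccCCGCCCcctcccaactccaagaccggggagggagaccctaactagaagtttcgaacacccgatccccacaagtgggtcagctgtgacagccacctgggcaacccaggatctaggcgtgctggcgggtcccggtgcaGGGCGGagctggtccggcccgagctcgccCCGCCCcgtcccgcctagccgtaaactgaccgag
Itgax, chr7:128129300-128129549, plus strand: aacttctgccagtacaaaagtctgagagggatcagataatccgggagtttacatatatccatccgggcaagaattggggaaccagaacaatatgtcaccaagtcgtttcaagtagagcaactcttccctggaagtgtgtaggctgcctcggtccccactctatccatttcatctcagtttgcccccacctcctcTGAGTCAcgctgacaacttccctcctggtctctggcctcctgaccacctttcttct

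Windows of this kind were at hand for 17 of the 28 members, 20 windows in all. GAGGAA occurred in 11 of these 20 (55.0%) and in 23.3% of all 32851 RefSeq windows of the same length, and GGGCGG in 7 of 20 (35.0%) and in 32.7% of all. TGANTCA was found in 1 of 20 (5.0%), the Itgax window, against 6.75% of all windows. TATAAA, the TATA box, was in 0 of 20 and in 12.4% of all. These are counts of letters in a window, and nothing measured here bears on whether a factor was bound.

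Of the 21 integrin genes, 8 were more abundant on the OBX side, and none of the 28 members was called lower. The 8 were the alpha chains Itga2, Itga6, Itga11, Itgav and Itgax and the beta chains Itgb1, Itgb4 and Itgb5, with fold changes from 1.31 for Itgb1 to 1.75 for Itgav. A gene was called where the adjusted p of limma, fitted over all 14742 genes with the mouse as a block, was under 0.05. By this rule 22.6% of all genes tested were called, 9.89% higher and 12.7% lower, so that 8 members higher of 28 and 0 lower is read against those shares. At an unadjusted limma p under 0.05 the members counted 21 higher and 0 lower, against 19.1% and 19.6% of all genes tested. The median log2 difference (OBX minus control) of the members was 0.55, and that of all genes tested was -0.01. A positive difference was found in 26 of 28 members. In 19 members all 3 OBX arrays lay above all 3 control arrays, which was so for 20.7% of all genes, and in 0 members did they lie below.

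Markers of mature olfactory neurons, which define this tissue, had a summed log2 intensity of 15.99 to 16.16 on the control side and 14.22 to 15.20 on the OBX side, where 9 of 9 were called lower. Correlations between arrays of the same side were 0.97 to 0.983, and array medians were 8.37 to 8.55. The control array of mouse 3 stood apart in blood cell transcripts and was low in several matrix transcripts. Ngp, a neutrophil granule protein, was 4.07 there and 8.96 and 9.21 on the other control arrays. Ppbp, a platelet chemokine, was 6.47 there and 8.18 and 8.88 on the others. Among matrix genes, Col1a1 was 12.92 there and 13.63 and 13.73 on the others, and Tnc 8.71 there and 9.44 and 9.66. Ibsp, a ligand of integrins, was 11.04 there and 11.76 and 11.91 on the others. Thbs1, at 10.50, lay between the others (10.45 and 10.77). In tissue of mixed cells, fewer cells of a type and less RNA per cell cannot be told apart.

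**Figure D1:**
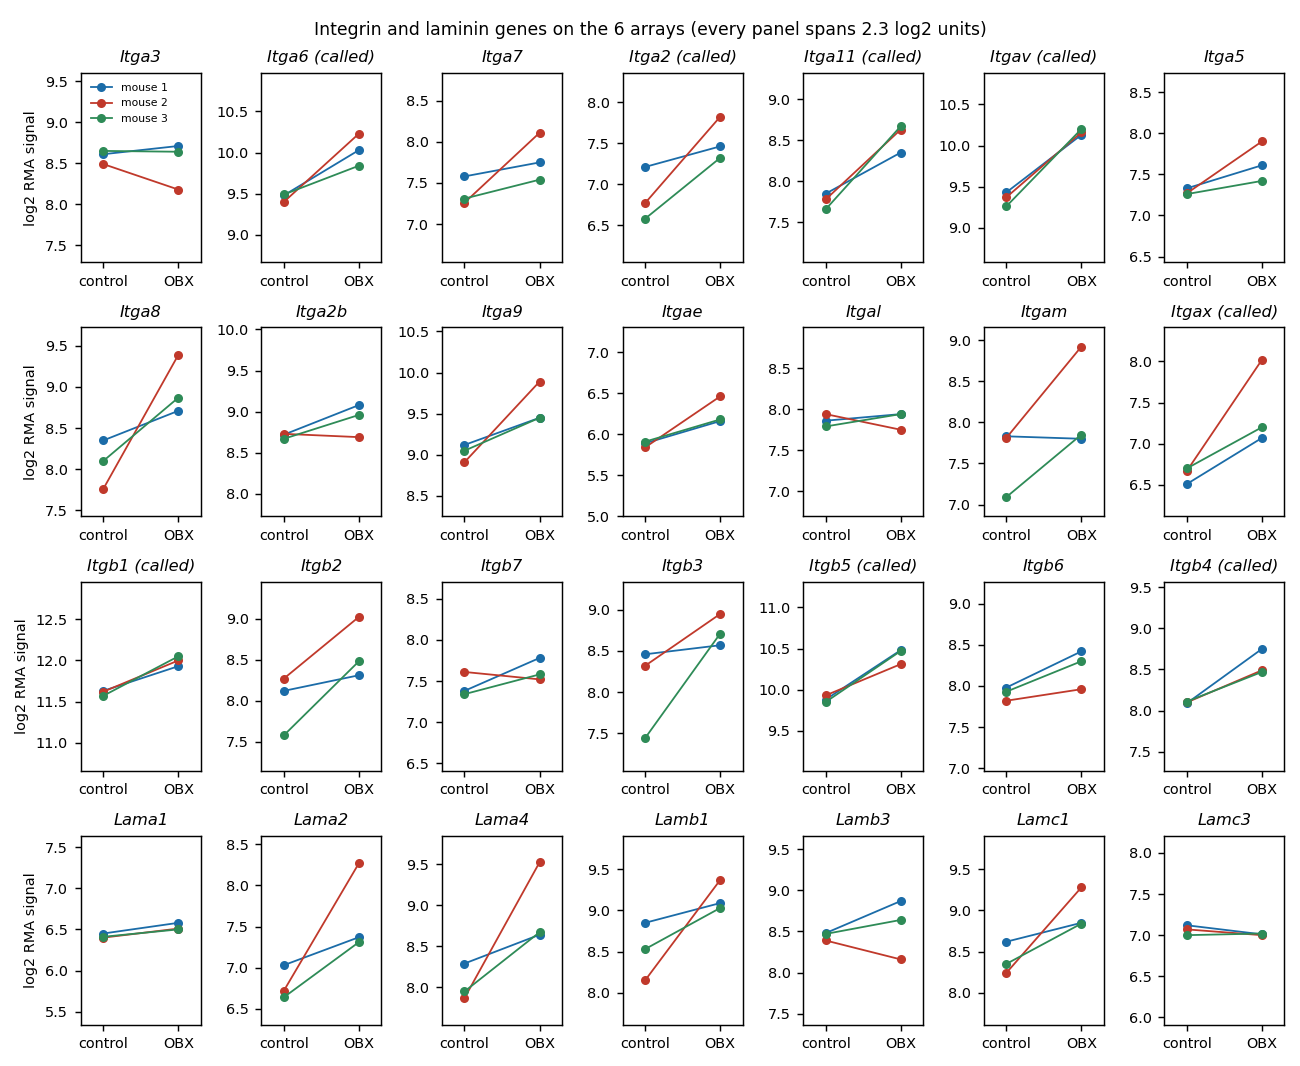
Log2 signal of each of the 28 members (vertical axis, RMA log2 intensity, each panel spanning 2.3 log2 units) on the control and the OBX array of each mouse, with a line joining the sides of a mouse. The lines of Itgav, Itga11 and Itgb1 run upward together, while in Lama4, Lama2 and Itga8 the line of mouse 2 climbs more steeply than the others.

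Among the integrins that bind laminin, Itga6, the alpha chain shared by hemidesmosomes and by a general laminin receptor, was the member that rose. Its control arrays read 9.48, 9.40 and 9.49 in mice 1, 2 and 3, and its OBX arrays 10.03, 10.23 and 9.84. The sides did not overlap, and the log2 difference was 0.58 (SE 0.12, n = 3 mice, limma adjusted p = 0.031). Itgb4, its partner in hemidesmosomes and the chain that binds plectin, read 8.09, 8.10 and 8.11 on the control side and 8.75, 8.49 and 8.47 on the OBX side. The control arrays of Itgb4 were nearly equal, every OBX array was above them, and the log2 difference was 0.46 (SE 0.10, limma adjusted p = 0.0353). The other laminin-binding alpha chains did not pass. Itga3, found in basal and glandular epithelia, differed by -0.08 (SE 0.11) and Itga7, known from muscle and vessel walls, by 0.42 (SE 0.16, limma adjusted p = 0.128), and both had overlapping sides.

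Both collagen-binding alpha chains among the members rose. Itga11, a receptor for fibrillar collagen on fibroblasts, read 7.85, 7.78 and 7.66 on the control side and 8.35, 8.63 and 8.67 on the OBX side. All OBX arrays lay well above the control arrays, with a log2 difference of 0.79 (SE 0.12, limma adjusted p = 0.0165). Itga2, a collagen receptor of epithelia and platelets, read 7.21, 6.77 and 6.58 on the control side and 7.46, 7.82 and 7.32 on the OBX side. The sides were separated by a narrow gap, the lowest OBX array being 7.32 against the highest control array at 7.21, and the log2 difference was 0.68 (SE 0.17, limma adjusted p = 0.0484). The call for Itga2 was the closest to the threshold of the 8, and it held in 4 of 14 alternative settings.

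Among the alpha chains that recognise the RGD sequence of fibronectin, vitronectin and related proteins, Itgav had the smallest adjusted p of all 28 members. Its control arrays read 9.43, 9.37 and 9.26, and its OBX arrays 10.13, 10.16 and 10.20. The difference was between 0.70 and 0.94 in each mouse, and its log2 mean was 0.81 (SE 0.09, limma adjusted p = 0.00768). Itga8, which binds nephronectin, had the largest difference of any member and was not called. It read 8.35, 7.76 and 8.10 on the control side and 8.71, 9.39 and 8.87 on the OBX side, with no overlap. The log2 difference of 0.92 (SE 0.25, limma adjusted p = 0.0589) was made of 0.37, 1.62 and 0.76 in mice 1, 2 and 3. Itga5, the classical fibronectin receptor chain, differed by 0.35 (SE 0.12, limma adjusted p = 0.1) without overlap, and Itga2b, the platelet fibrinogen receptor chain, by 0.20 (SE 0.11, limma adjusted p = 0.252) with overlap. Itga9, which binds tenascin-C and osteopontin, differed by 0.57 (SE 0.15, limma adjusted p = 0.0589), again without overlap.

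The beta chains that pair with Itgav were unequal. Itgb5, a vitronectin receptor chain, read 9.88, 9.93 and 9.85 on the control side and 10.48, 10.31 and 10.47 on the OBX side. The sides were clearly apart and the log2 difference was 0.53 (SE 0.09, limma adjusted p = 0.0214). Itgb3, the partner of Itgav on vessels and osteoclasts and of Itga2b on platelets, differed by 0.67 (SE 0.23, limma adjusted p = 0.0992). Its control arrays read 8.46, 8.32 and 7.44 and its OBX arrays 8.57, 8.95 and 8.71, so that the array of mouse 3 on the control side was low and the difference in that mouse, 1.26, was the largest. Itgb6, the chain of epithelial receptors that activate TGF-beta, differed by 0.32 (SE 0.10, limma adjusted p = 0.0792) with a small overlap. Itgb1, which pairs with most alpha chains including Itga2, Itga6 and Itga11, read 11.63, 11.62 and 11.57 on the control side and 11.93, 12.00 and 12.05 on the OBX side. All OBX arrays were above the control arrays, and the difference of 0.39 (SE 0.09, limma adjusted p = 0.0373) was small but close to even across mice, at 0.30, 0.38 and 0.48.

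Of the leukocyte integrins, Itgax, the alpha chain of complement receptor CR4 on macrophages and dendritic cells, was the member called. It read 6.51, 6.67 and 6.70 on the control side and 7.07, 8.02 and 7.20 on the OBX side. The sides did not overlap, the OBX array of mouse 2 was the highest, and the log2 difference was 0.80 (SE 0.19, limma adjusted p = 0.0434). That call held in 5 of 14 alternative settings, the adjusted p of limma being 0.0508 with no filter on low signal, 0.0564 without the mouse block and 0.0628 with quantile normalization. Itgb2, the beta chain it shares with Itgam and Itgal, read 8.12, 8.27 and 7.58 on the control side and 8.31, 9.02 and 8.48 on the OBX side. Its difference was 0.62 (SE 0.16, limma adjusted p = 0.0534), and the highest control array, 8.27, lay just under the lowest OBX array, 8.31. Itgam, the alpha chain of CR3 on macrophages and neutrophils, read 7.83, 7.81 and 7.09 on the control side and 7.80, 8.92 and 7.85 on the OBX side. The sides overlapped, mouse 1 showed a difference of -0.03, and the log2 mean was 0.61 (SE 0.23, limma adjusted p = 0.121). Itgal, a lymphocyte integrin chain, differed by 0.01 (SE 0.10). Itgae and Itgb7, which pair on lymphocytes and dendritic cells lodged in epithelia, differed by 0.39 (SE 0.11, limma adjusted p = 0.0634) and 0.19 (SE 0.12, limma adjusted p = 0.313).

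Markers of blood-borne cells were read on the same arrays. Their counts, and those of the later marker lists, are read against the 9.89% of all genes tested called higher and 12.7% lower. Of 12 macrophage markers, 6 were called higher and 0 lower, and their summed log2 intensity went from 11.65 to 12.04 on the control side to 12.31 to 13.22 on the OBX side. Their mean difference was 0.63, 1.15 and 0.60 in mice 1, 2 and 3, the order of mice also found for Itgax (0.55, 1.35 and 0.50). The same order was found for Itga5 (0.27, 0.63 and 0.16) and Itga6 (0.56, 0.84 and 0.36), which are not among the leukocyte integrins. Of 6 dendritic cell markers 0 were called higher and 1 lower (9.49 to 9.66 and 9.41 to 9.43), with mean differences of -0.03, 0.27 and 0.06. Of 8 neutrophil markers 0 were called by limma, at adjusted or unadjusted p, with summed levels of 9.28 to 11.32 on the control side and 10.91 to 11.31 on the OBX side and mean differences of -0.35, 0.25 and 1.93. For platelets 0 of 5 were called, again at either p (8.94 to 10.01 and 9.41 to 9.62), and for T and NK cells 0 of 7, 1 being higher at unadjusted p (8.90 to 8.99 and 8.88 to 9.01). Itgb2, Itgb3 and Itgam were each lowest on the control array of mouse 3, where neutrophil and platelet transcripts were also low. This was not particular to them, as Itga2, Itga11, Itgav, Itgb1 and Lama2, among others, were also lowest there. Itga2b, the platelet partner of Itgb3, was 8.67 there and 8.72 and 8.73 on the other control arrays. Without mouse 3 the differences of Itgb2, Itgb3 and Itgam were 0.47, 0.37 and 0.54. Without mouse 1 they were 0.83, 0.95 and 0.93 and called (limma adjusted p = 0.0183, 0.0377 and 0.0203). The part of these cells in the integrin differences was not tested.

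**Figure D2:**
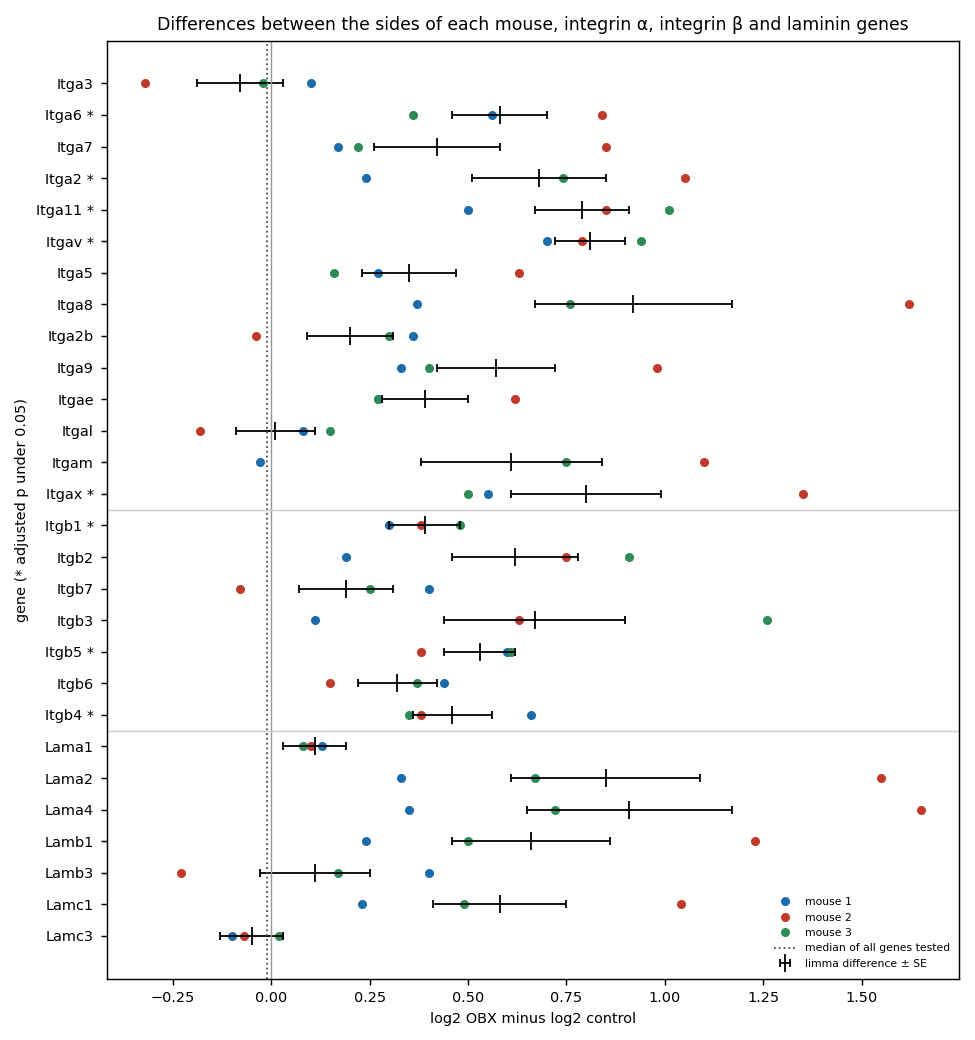
Difference between the OBX and the control side (horizontal axis, log2) for each member, with a dot for each mouse and a bar for the limma difference ± SE, the dotted line at the median of all genes (-0.01) and a star where the adjusted p was under 0.05. The 8 starred genes are all integrins, and the laminins Lama4 and Lama2, with SE of 0.26 and 0.24, sit as far to the right without a star.

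Of the 7 laminin genes 0 were called by limma (4 higher and 0 lower at an unadjusted p under 0.05, where 19.1% of all genes were higher), although their median difference, 0.58, was close to that of the integrins, 0.53. In 5 of the 7 all OBX arrays lay above all control arrays, which was so for 20.7% of all genes. Lama1, with a difference of 0.11, was among the 5. Lama4, the alpha chain of vascular laminins, read 8.29, 7.87 and 7.95 on the control side and 8.64, 9.52 and 8.67 on the OBX side. The OBX array of mouse 2 was far above the rest, and the log2 difference of 0.91 (SE 0.26, limma adjusted p = 0.0666) was composed of 0.35, 1.65 and 0.72. Lama2, the chain of laminins around muscle and peripheral nerve, read 7.03, 6.72 and 6.64 on the control side and 7.37, 8.27 and 7.31 on the OBX side. Here too mouse 2 had both the highest OBX array and the largest difference, 1.55, within a mean of 0.85 (SE 0.24, limma adjusted p = 0.0669).

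Lamb1 and Lamc1, the beta and gamma chains found in most laminins, followed the same order of mice. Lamb1 differed by 0.24, 1.23 and 0.50 in mice 1, 2 and 3, with a log2 mean of 0.66 (SE 0.20, limma adjusted p = 0.081). Lamc1 differed by 0.23, 1.04 and 0.49, with a mean of 0.58 (SE 0.17, limma adjusted p = 0.0708). In neither gene did the sides overlap. The remaining chains differed little. Lama1, a chain of embryonic and some epithelial basement membranes, read 6.45, 6.40 and 6.41 on the control side and 6.58, 6.51 and 6.50 on the OBX side, a difference of 0.11 (SE 0.08, limma adjusted p = 0.389) with no overlap. Lamc3 read 7.12, 7.07 and 7.00 against 7.01, 7.00 and 7.02, a difference of -0.05 (SE 0.08, limma adjusted p = 0.67) with overlap. Lamb3, the beta chain of the laminin that anchors hemidesmosomes, differed by 0.40, -0.23 and 0.17, a mean of 0.11 (SE 0.14).

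The members varied in how even they were across mice. The highest of the 3 differences was in mouse 2 for 13 of 28 members, in mouse 3 for 8 and in mouse 1 for 7, while mouse 2 was the highest for 29.1% of all genes tested and for 44.6% of those called higher. By chain, this held for 9 of 14 alpha subunits, 0 of 7 beta subunits and 4 of 7 laminins. The laminins had median differences of 0.24, 1.04 and 0.49 in mice 1, 2 and 3, and the beta subunits 0.40, 0.38 and 0.48. Without mouse 2 the differences of Lama4 and Lama2 were 0.53 and 0.50 (limma adjusted p = 0.0606 and 0.0633) and that of Itga8 was 0.56 (limma adjusted p = 0.0593). Without mouse 1 all 3 were called, at 1.18, 1.11 and 1.19 (limma adjusted p = 0.0419, 0.0432 and 0.0363).

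Markers of vessels were also highest in mouse 2. The 9 endothelial markers had mean differences of 0.14, 1.19 and 0.42 in mice 1, 2 and 3, with 1 called higher, 0 lower and summed log2 intensities of 10.53 to 10.91 on the control side and 11.00 to 11.65 on the OBX side. The 8 mural and smooth muscle markers had 0.17, 0.98 and 0.36, with 1 called higher, 0 lower and 13.34 to 13.64 against 13.82 to 14.32. The order of mice in both lists is that seen for Lama2, Lama4, Lamb1, Lamc1, Itga8 and Itga9, and also for Itga2, Itga7 and Itgam. It was not particular to vessels, as the ensheathing and Schwann glia markers (0.14, 0.61 and 0.20) and the dendritic cell markers also had it. The 7 fibroblast markers had 0.37, 0.55 and 0.75 (3 called higher, 0 lower, 14.65 to 15.17 and 15.35 to 15.54). Their order of mice is that of Itga11 (0.50, 0.85 and 1.01), Itgav and Itgb1, and also of Itgb2, Itgb3 and Lamc3. Of the fibroblast markers, Col1a1, Col1a2, Col3a1, Dcn, Lum and Pdgfra read lowest on the control array of mouse 3, and Dpt did not. The neutrophil and platelet markers had this order of mice too. The 7 globose basal and precursor cell markers had the same order, 0.60, 0.68 and 0.87, with 6 called higher, 0 lower and summed intensities of 11.37 to 11.58 and 12.00 to 12.30.

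The 6 horizontal basal cell markers had mean differences of 0.66, 0.12 and 0.35 in mice 1, 2 and 3 (2 called higher, 0 lower, 11.88 to 11.93 and 12.15 to 12.43). The low mean of mouse 2 came largely from Krt15, at 1.88, -0.70 and 0.26. Krt14 (0.64, 0.30 and 0.48), Krt5 (0.46, 0.19 and 0.47) and Col17a1 (0.37, 0.12 and 0.36) were also lowest in mouse 2. Trp63 (0.31, 0.37 and 0.23) and Icam1 (0.32, 0.46 and 0.28) were highest in mouse 2. Among members, mouse 2 was the lowest for Itgb6 (0.44, 0.15 and 0.37), Lamb3 (0.40, -0.23 and 0.17), Itgb5 (0.60, 0.38 and 0.61) and Itga3 (0.10, -0.32 and -0.02). It was also the lowest for the platelet chain Itga2b (0.36, -0.04 and 0.30) and the leukocyte chains Itgb7 (0.40, -0.08 and 0.25) and Itgal (0.08, -0.18 and 0.15). A low mouse 2 was not particular to basal cells, as the respiratory epithelium markers had it too (means of 0.64, -0.29 and 0.43). The called hemidesmosome chains had other orders, Itga6 being highest in mouse 2 (0.56, 0.84 and 0.36) and Itgb4 lowest in mouse 3 (0.66, 0.38 and 0.35). These are orders over 3 mice read after the values were known, and the part of a changed share of vessel, stromal or basal cells in the differences was not tested.

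**Figure D3:**
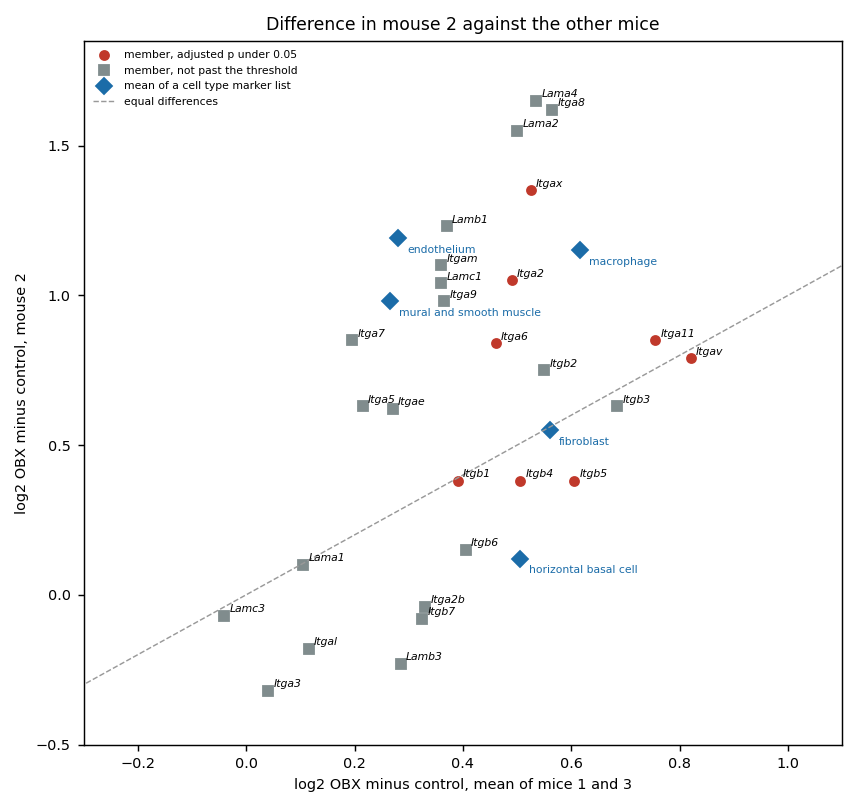
Log2 difference (OBX minus control) in mouse 2 (vertical axis) against the mean of mice 1 and 3 (horizontal axis) for each member, called members in red and others in grey, with blue diamonds for the means of 5 marker lists and a dashed line of equality. Of the members 15 lie above the line and 13 below, with Lama4, Lama2 and Itga8 high above it. The macrophage, endothelial and mural diamonds also lie above the line, lower than those genes.

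Of 25 genes for partners of laminin in basement membranes, 8 were called higher and 0 lower, with a median difference of 0.50. Of all genes tested, 9.89% were called higher and 12.7% lower, and the counts of this and the following lists are read against those shares. The smallest p was that of Npnt, which encodes nephronectin, the ligand of Itga8. It read 9.79, 9.74 and 9.68 on the control side and 10.57, 10.80 and 10.72 on the OBX side, a difference of 0.96 (SE 0.10, limma adjusted p = 0.006). Its differences were near even across mice, at 0.79, 1.06 and 1.04, and those of Itga8 were not. Fras1 and Frem1, which form a complex under epithelia, rose by 0.85 (SE 0.13) and 0.96 (SE 0.17), and Efemp2, an elastic fibre protein, by 0.75 (SE 0.13, limma adjusted p = 0.0139, 0.0208 and 0.0211). Hspg2 (perlecan), Col18a1, Nid2 and Col4a2 were also called, and 17 of the 25 were not. Without mouse 3 the count was 1, and 0.427% of all genes tested were then called higher.

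Of 26 ligands other than laminin, 12 were called higher and 0 lower, with a median of 0.63. Fn1 (fibronectin), a ligand of Itga5, Itga8 and Itgav, read 9.97, 9.88 and 9.50 on the control side and 10.67, 11.41 and 10.75 on the OBX side. The sides were far apart and its difference was 1.16 (SE 0.18, limma adjusted p = 0.0149). Tgfb3, whose latent form is bound by receptors with Itgav, rose by 0.71 (SE 0.09, limma adjusted p = 0.0105). Thbs2, a matricellular thrombospondin, rose by 0.92 and Fbn2, a microfibril protein, by 0.64 (SE 0.14 and 0.11, limma adjusted p = 0.0159 and 0.0199). The fibrinogen chains Fga, Fgb and Fgg were among the genes of low signal and were not tested. The count was 7 without mouse 2 and 0 without mouse 3, where 7.67% and 0.427% of all genes tested were called higher.

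Inside the cell, 6 of 30 cytoplasmic and membrane partners of integrins were called higher and 0 lower, and the median was 0.22. Tln1, the talin that opens integrins from within, rose by 0.58 (SE 0.10), Pxn (paxillin), a focal adhesion scaffold, by 0.48 (SE 0.08) and Fermt2 (kindlin-2), the co-activator of talin, by 0.55 (SE 0.10, limma adjusted p = 0.0201, 0.0201 and 0.0242). The tetraspanin Tspan4 rose by 0.76 (SE 0.13, limma adjusted p = 0.0192). Of 10 hemidesmosome components and other laminin receptors, 3 were called higher and 0 lower, with a median of 0.30. Cd151, a tetraspanin that binds laminin receptors, rose by 0.42 (SE 0.08), Plec (plectin), the linker from Itgb4 to keratin, by 0.43 (SE 0.09) and Krt14 by 0.47 (SE 0.10, limma adjusted p = 0.0262, 0.0294 and 0.0346). Cd151 was the evenest of them, at 0.43, 0.44 and 0.40 in the 3 mice, a size close to the mean of Itgb4. Without mouse 3 the count was 0 for both lists, and without mouse 1 it was 3 cytoplasmic partners and 0 hemidesmosome genes. Of all genes tested, 0.427% were called higher without mouse 3 and 6.65% without mouse 1.

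The probe sets of a gene were also compared with each other, to ask whether any exon departed from its gene. In the called members nearly every probe set had a positive mean difference, 31 of 31 in Itgav, 31 of 31 in Itga11, 28 of 28 in Itga6, 25 of 25 in Itga2, 18 of 19 in Itgb1, 19 of 20 in Itgb5, 40 of 42 in Itgb4 and 32 of 33 in Itgax. Of the laminins, 4 had mostly positive probe sets as well, with 40 of 41 in Lama4, 63 of 64 in Lama2, 33 of 35 in Lamb1 and 29 of 29 in Lamc1. The probe sets of the other laminins were divided, 48 of 70 being positive in Lama1, 19 of 27 in Lamb3 and 15 of 35 in Lamc3, and so were those of Itga3 and Itgal, with 14 of 33 and 15 of 30.

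**Figure D4:**
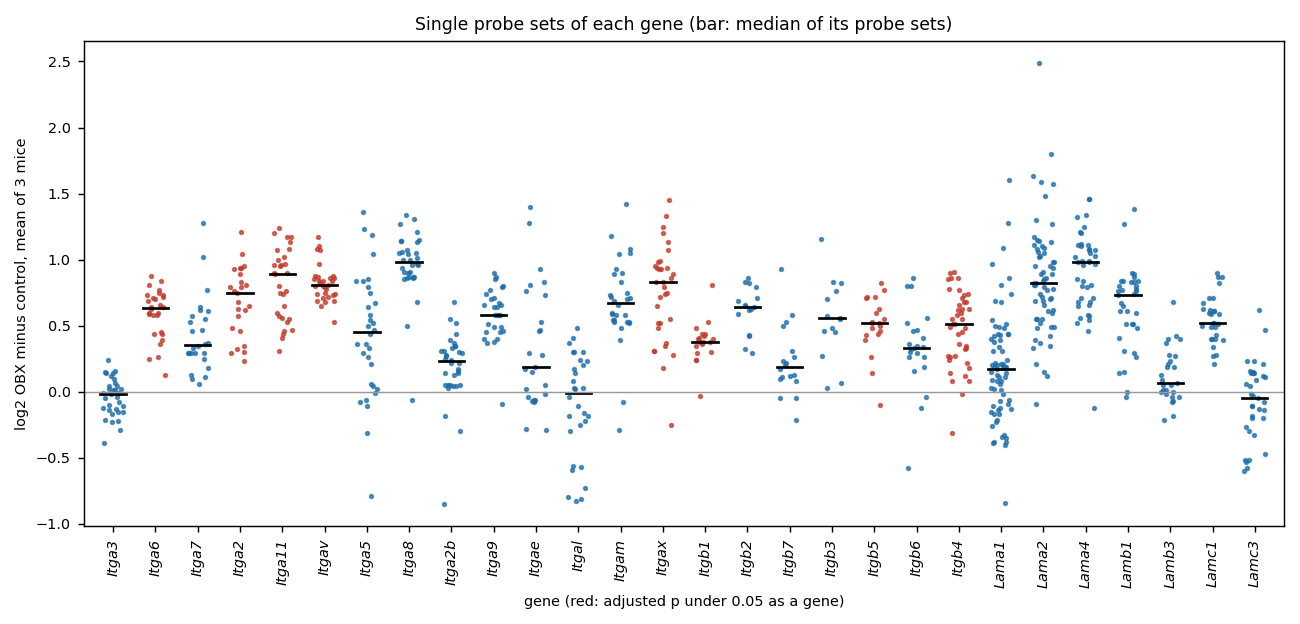
Mean log2 difference (OBX minus control, vertical axis) of each probe set, grouped by gene, with a bar at the median of the gene and called genes in red. In Itgav and Itga11 all 31 points of each gene lie above 0. Those of Lama1 lie on both sides of 0, from -0.84 to 1.6, with a median of 0.17.

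Unequal use of exons was called in 5 of 28 members by the Simes test of diffSplice in limma, against 8.2% of the 13505 genes with enough probe sets. In Itga2b (limma Simes adjusted p of the gene = 0.0013) the probe set with the smallest p (4731232) read 4.62, 5.31 and 6.19 on the control side and 3.57, 5.01 and 4.99 on the OBX side. Its departure from the gene was -1.07, and it was dim, the median probe set of Itga2b reading 8.61 on the control side. In Lama1 probe set 5206775 went from 4.82, 5.64 and 5.91 to 6.94, 6.91 and 7.33, a departure of 1.43 (limma Simes adjusted p of the gene = 0.00711). In Itga5 probe set 4388440 went from 8.35, 8.38 and 8.51 to 7.80, 7.26 and 7.82, a departure of -1.26 (limma Simes adjusted p of the gene = 0.045). Every OBX array of this probe set was below every control array, while the difference of the gene as a whole was positive. In Itgb5 (probe set 5406926) and Itgb6 (probe set 5126964) the departures were -0.64 and -0.96 (limma Simes adjusted p of the genes = 0.0174 and 0.0347). Without mouse 3 the count was 0, against 1.24% of the genes then tested. The test takes 1 variance for all probe sets of a gene, and in simulated data it made many false calls when these variances were unequal. When each probe set was set against its own variance, 1.77% of genes were called and 0 of these 5 members stayed, with Itga5 at an adjusted p = 0.134 in limma, and Lama4 was called (limma adjusted p = 0.00674). Its probe set 4480153 read 10.01, 9.60 and 10.06 on the control side and 9.42, 10.25 and 9.65 on the OBX side, a departure of -1.02 from a gene that was higher on every OBX array. This alternative was chosen after seeing the data.

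The calls of the members leaned on all 3 mice. Without mouse 1 the count of members called higher was 10, but only 3 of the 8 (Itga2, Itga11 and Itgav) were among them. Without mouse 2 it was 4, all of them from the 8 (Itga11, Itgav, Itgax and Itgb5), and without mouse 3 it was 0, with 63 genes of the whole array then higher and 820 lower. The differences themselves changed less, and without mouse 3 those of the 8 called members were 0.34 to 0.95. With the arrays centred on 81 ribosomal protein genes, which moved the median of all genes to -0.22, Itgav was the member still called, at 0.60 (SE 0.13, limma adjusted p = 0.0267), the median of the members was 0.34, 21 were positive and 1.68% of all genes were called higher.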

How the data were processed

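The data are 6 Affymetrix mouse exon arrays. The authors made the deposited values with RMA in Affymetrix Expression Console, as log2 intensity per probe set, already background-corrected and normalized; the deposited table holds 229581 probe sets with values of 1.2 to 15.17. Array number limits precision. The platform annotation gave 1 symbol to 209279 probe sets, several to 4446 and none to 15856. Probe sets with 1 symbol were summarised per gene by median polish, and symbols were updated through RefSeq (2120 of 16380 genes). limma 3.58.1 (R 4.3.3) was fitted with the mouse as a block, with Benjamini-Hochberg adjustment over all 14742 genes, after tests on simulated data. In those tests power varied with the seed, and a requirement on power was replaced by requirements on bias and false calls. diffSplice made many false calls there when probe sets had unequal variances. The pairing is by animal; deviations of the sides of a mouse correlated at -0.07, 0.27 and 0.24. Exon usage was tested with diffSplice in genes with at least 4 probe sets. The methods' t-test was an alternative, as were no block, other filters, scalings and gene summaries, and leaving out each mouse. Every member is named, with full statistics for those called, the 2 largest and the 2 most precise others, and up to 4 genes per list. Members and lists were chosen with earlier results of these data known. Motifs were sought on both strands of RefSeq windows (GRCm38.p6) with Python 3.11.15, and figures drawn with matplotlib 3.10.9.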

Additional observations from a re-analysis of the deposited data

How the results depend on the processing

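With 3 mice the spread between mice limits every call, and arrays carry no depth. Over the alternatives, the members' differences kept their direction and side of the threshold in 310 cases, newly passed in 22, no longer passed in 46 and changed sign in 12. The causes were not tested. Members called higher (8) numbered 10 with no replicate block (6 of them shared), 0 by the methods' t-test after adjustment (6 before), 1 with ribosomal protein centring, 5 with the median of probe sets and 0 to 10 without each mouse, and 0 were called lower throughout. That centring gave 6.37% of all calls higher against 43.7%, and a members' median of 0.34. The block changed no list count by over 1.5 times, and exon usage (5 members) gave 3 with no replicate block, 1 with each probe set's own variance (added after seeing the data), 2 with the lowest 30% of probe sets left out, 3 by the F test and 0 to 5 without each mouse. Basement membrane partners called higher (8) were 5 by the methods' t-test and 0 after adjustment, 13 with the lowest 30% of genes left out, 1 with ribosomal centring and 1 to 10 without each mouse. Hemidesmosome genes (3) were 0 by the adjusted t-test, 5 with a trended robust variance, 0 with ribosomal centring, 1 with the median of probe sets and 0 to 3 without each mouse. Ligands called higher (12) were 6 by the t-test, 0 after adjustment, 3 with ribosomal centring and 0 to 15 without each mouse, and those called lower (0) were 1, 3 and 1 by the t-test, with ribosomal centring and with the mean of probe sets. Cytoplasmic partners (6) were 0 by the adjusted t-test, 0 with ribosomal centring and 0 to 4 without each mouse. Signs changed for Itgal (-0.01 with quantile normalization, -0.20 with ribosomal centring, -0.08 and -0.01 with the mean and median of probe sets, -0.05 to 0.11 without each mouse, -0.02 without mouse 1), Lamb3 (-0.10 with ribosomal centring, -0.03 to 0.28 without each mouse), Itga2b, Itgb7 and Lama1 (-0.01, -0.02 and -0.10 with ribosomal centring) and Itga3 (-0.17 to 0.04 without each mouse).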

Other observations

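Probe sets for 3 further annotations lie close to the family by name and outside the naming rule, and were read without a test. Itgbl1, which encodes a secreted protein with integrin-like EGF repeats, read 8.86, 8.69 and 8.73 on the control side and 9.08, 10.13 and 9.22 on the OBX side in mice 1, 2 and 3. Every OBX array was above every control array, the mean difference was 0.72 (SD 0.64, n = 3 mice), and mouse 2 was again the highest. Probe sets shared by Itga4 and its neighbour Cerkl read 7.55, 7.20 and 7.07 on the control side and 7.02, 7.68 and 6.89 on the OBX side, a mean difference of -0.08 (SD 0.52). Itgb2l, a leukocyte integrin beta chain gene, had a mean difference of -0.02 (SD 0.40). In both of these the sides overlapped. In Lama2, probe set 4595885, picked out after its values were seen, read 4.60, 4.21 and 4.99 on the control side and 6.89, 7.53 and 6.85 on the OBX side, and its gene was not called for exon usage.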
